A study of Sus scrofa with 30 samples.

Results

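miR-142 is a miRNA gene of blood-forming cells, and its hairpin is cut into 2 mature miRNAs, miR-142-5p from one arm and miR-142-3p from the other. The members described here were the ssc-miRNAs of the deposited count table numbered exactly as miR-142 or miR-223 are. The rule found 2 of 411 ssc-miRNAs, ssc-miR-142-5p and ssc-miR-142-3p. The myeloid ssc-miR-223, which the same rule names, was not analysed here. The plasma came from 3 young male Göttingen minipigs, all given the same 2.2 Gy total body irradiation (TBI) from a cobalt source, with no unirradiated animals beside them. All 3 were vehicle controls of a countermeasure study, received dextrose under the skin after TBI and were given antibiotics when their neutrophils were low. Each animal gave 1 small RNA library at each of 10 time points, 2 before TBI (C7 and C1, 7 days and 1 day before) and 8 after it (0d, the day of TBI, to 20d). Pre-TBI pools C7 and C1, Early is 0d to 7d, Mid is 10d and 14d, Late is 17d, and LR (late regression) is 20d. The study set these phases from the same libraries, so they are not independent of the values.

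miRNAs are short RNAs that guide Argonaute proteins to matching messenger RNAs, mostly through the seed, bases 2 to 8 from the 5′ end. miR-142 is made in nearly all haematopoietic lineages and is needed for normal T cell, dendritic cell, mast cell and platelet development. It is little expressed outside blood cells, and in plasma it can come from leukocytes, platelets or the vesicles they release. In plasma, fewer cells of a type and less RNA per cell cannot be told apart. In the pig annotation (RefSeq, Sscrofa11.1) MIR142 lies between TSPOAP1 and SUPT4H1, and the next genes beyond TSPOAP1 are MPO, the myeloperoxidase of neutrophil granules, and LPO, lactoperoxidase.

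The seeds are shown because the arms share no seed and so address different targets. They were read from the study's network tables, where 58 miRNA names carry a seed and none of the others has either of these. The capitals mark the whole seed.

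miR-142-5p seed: AUAAAGU
miR-142-3p seed: GUAGUGU

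Of the 30 libraries, 24 held at least 1000 counts in all and were used, with totals from 24341 to 550316 counts. The other 6, all of minipig 3 from 3d onwards, held 0 to 17 counts and no read of either arm. Values from 3d onwards therefore rest on minipigs 1 and 2. Depth differed by phase, with medians of 243304 counts before TBI (n = 6), 261501 at Early (n = 10), 70914 at Mid (n = 4), 46300 at Late (n = 2) and 475862 at LR (n = 2). Both arms were rare in plasma, at 0.0146% to 0.129% of the counts of a library for ssc-miR-142-5p and 0.00506% to 0.0243% for ssc-miR-142-3p. By mean log2 CPM (CPM, reads scaled to a common library size with TMM factors) ssc-miR-142-5p ranked 194th of 411 before TBI and ssc-miR-142-3p ranked 352nd. At Mid these ranks were 331 and 385. ssc-miR-142-5p had more counts than ssc-miR-142-3p in 23 of the 24 libraries, and the exception was minipig 2 at 7d. At most 332 and 90 counts stood behind a pre-TBI value, and 8 and 4 at the least, both at C7 of minipig 1.

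Before TBI, ssc-miR-142-5p was at 393 and 326 CPM in minipig 1 (C7, then C1), at 1242 and 733 CPM in minipig 2 and at 583 and 428 CPM in minipig 3. C7 was the higher of the pair in all 3 animals, and minipig 2 held both of the highest values. The baseline mean was 9.14 ± 0.70 log2 CPM (SD, n = 6). ssc-miR-142-3p was at 197 and 83.5 CPM in minipig 1, at 219.9 and 218 CPM in minipig 2 and at 158 and 109 CPM in minipig 3, with the pair in minipig 2 nearly equal. Its baseline mean was 7.34 ± 0.55 log2 CPM (SD, n = 6).

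**Figure D1:**
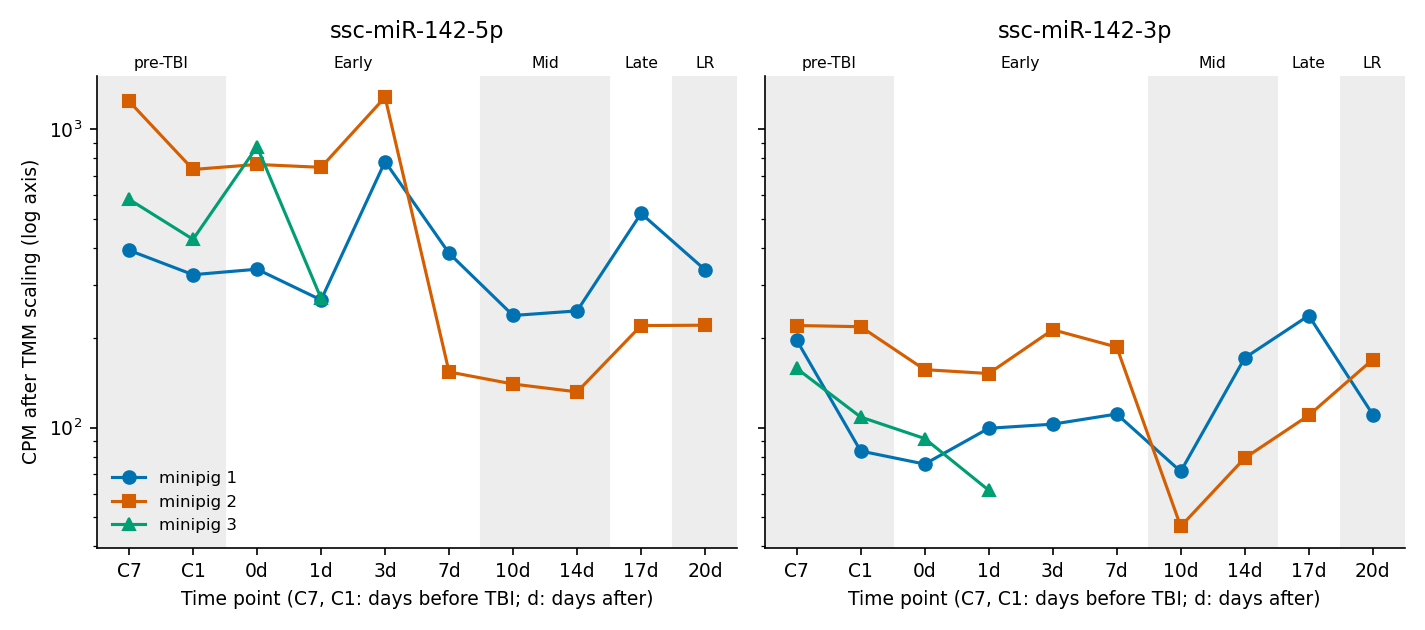
CPM of ssc-miR-142-5p (left) and ssc-miR-142-3p (right) on a log axis against the time point, 1 point per library, with a line and marker for each minipig and the phases shaded in turn. ssc-miR-142-5p in minipig 2 drops between 3d and 7d and stays low, while ssc-miR-142-3p in the same animal is lowest at 10d.

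At the Early phase neither arm differed from the pre-TBI baseline beyond the spread between libraries. ssc-miR-142-5p spanned 154 to 1281 CPM over the 10 Early libraries with a median of 565 CPM, which covered the whole pre-TBI range of 326 to 1242 CPM. Its log2 fold change was -0.10 (standard error 0.38, 95% interval -0.89 to 0.70, adjusted p = 0.905, edgeR quasi-likelihood with Benjamini-Hochberg adjustment). ssc-miR-142-3p spanned 61.7 to 213 CPM with a median of 107 CPM, against 83.5 to 219.9 CPM before TBI. Its log2 fold change was -0.37 (standard error 0.29, 95% interval -0.97 to 0.23, adjusted p = 0.438). With the minipig as a replicate block it was -0.48 (standard error 0.26, unadjusted p = 0.0822, adjusted p = 0.264 in edgeR's test). Neither member was called, and 0% of the 411 ssc-miRNAs passed the adjusted threshold of 0.05 at Early, while 18.7% had an unadjusted p under 0.05. Against the same animal's own pre-TBI mean, ssc-miR-142-3p was lower in all 10 Early libraries, with log2 differences from -0.04 (minipig 2, 3d) to -1.00 (minipig 3, 1d). In minipig 1 this depended on C7, which rests on 4 counts. Its C1 was at 83.5 CPM, below 1d, 3d and 7d at 99.5, 103 and 111 CPM and above 0d at 75.5 CPM. How many of all ssc-miRNAs were lower in all 10 was not counted.

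Within the Early phase the 5p arm did not keep one level. On the day of TBI ssc-miR-142-5p was at 340 CPM in minipig 1, 762 CPM in minipig 2 and 875 CPM in minipig 3. At 1d the values were 268, 746 and 271 CPM, and each was below the same animal's value of the day before. At 3d they were 780 CPM in minipig 1 and 1281 CPM in minipig 2, the highest value of each animal in the series. At 7d they were 384 and 154 CPM, so both animals were lower at 7d than at 3d, minipig 2 from 337 counts to 33. ssc-miR-142-3p of minipig 2 went from 213 CPM at 3d to 186 CPM at 7d, or from 56 counts to 40. These single time points were not tested.

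At the Mid phase ssc-miR-142-5p was lower than before TBI in every library. It was at 238 CPM at 10d and 246 CPM at 14d in minipig 1, and at 140.0 and 132 CPM in minipig 2. All 4 values lay below the lowest pre-TBI value of 326 CPM, so the groups did not overlap. Of the 411 ssc-miRNAs, 1.22% had all Mid libraries below every pre-TBI library. These were ssc-miR-142-5p, ssc-miR-30c-1-3p, ssc-miR-26a, ssc-miR-181b and ssc-miR-22-3p, the last 4 named after their values were seen. The log2 fold change of ssc-miR-142-5p was -1.73 (standard error 0.55, 95% interval -2.86 to -0.61), which is 3.33 times lower, with an unadjusted p of 0.00416 and an adjusted p of 0.808 in edgeR's quasi-likelihood test. It was 1 of the 5.35% of ssc-miRNAs with an unadjusted p under 0.05 at Mid, and 0% passed the adjusted threshold. Over the alternatives its adjusted p ran from 0.314 to 0.999, so it passed that threshold under none of them.

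Minipig 2 carried most of the Mid difference. Against its own pre-TBI mean, minipig 2 stood at -2.70 and -2.79 (10d, 14d; log2 CPM difference) for ssc-miR-142-5p, while minipig 1 stood at -0.58 and -0.53. Without minipig 2 the log2 fold change was -0.84 (unadjusted p = 0.169 in edgeR's test), and without minipig 1 it was -2.51. Only 6 to 23 counts stood behind each Mid value of this arm.

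ssc-miR-142-3p at Mid was at 71.3 and 171 CPM in minipig 1 and at 46.7 and 79.1 CPM in minipig 2, from 3, 16, 2 and 9 counts. Its Mid range overlapped the pre-TBI range, and minipig 1 at 14d lay above 3 of the 6 pre-TBI libraries. The log2 fold change was -0.72 (standard error 0.42, 95% interval -1.59 to 0.15, unadjusted p = 0.102, adjusted p = 0.824 in edgeR's test). With the minipig as a replicate block it was -0.84, with an unadjusted p of 0.0470 and an adjusted p of 0.679. Without minipig 2 it was 0.05, and without minipig 1 it was -1.44 (unadjusted p = 0.0302). Both 10d values rest on 3 counts or fewer, so little can be read from them at this depth.

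**Figure D2:**
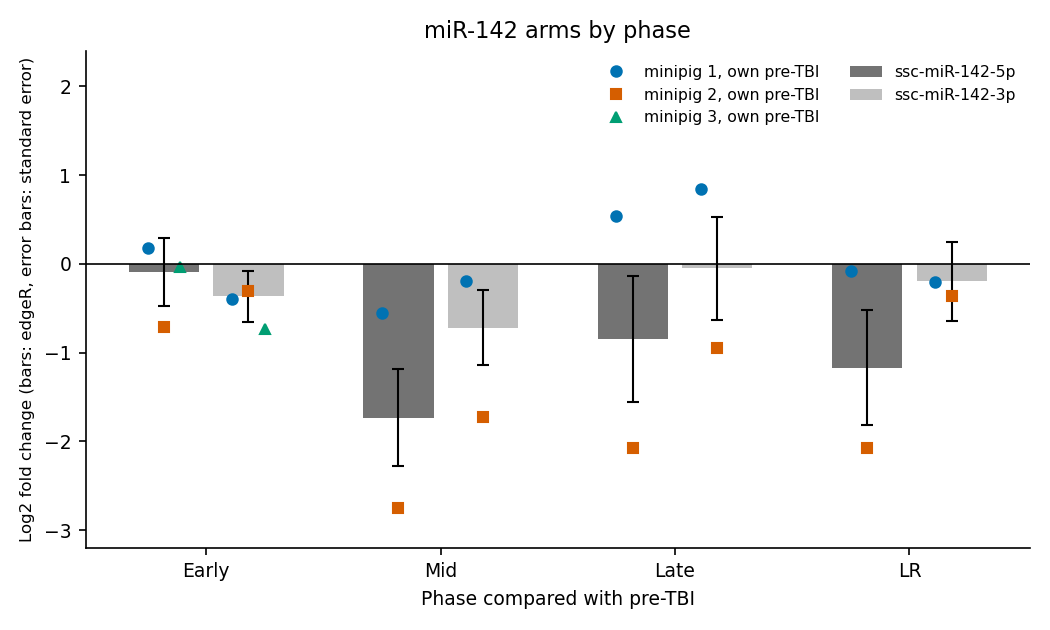
Log2 fold change of ssc-miR-142-5p (dark bars) and ssc-miR-142-3p (light bars) against pre-TBI in each phase, with edgeR's standard error, and coloured points for each minipig's mean log2 CPM minus its own pre-TBI mean. The 5p bar is lowest at Mid (-1.73), and minipig 2 lies below minipig 1 for both arms at Mid, Late and LR.

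At the Late phase the 2 animals were far apart. ssc-miR-142-5p was at 522 CPM in minipig 1 and at 219.9 CPM in minipig 2 at 17d, from 11 and 14 counts. Relative to their own baselines the log2 differences were 0.54 and -2.08. The log2 fold change was -0.84 (standard error 0.71, 95% interval -2.31 to 0.62, adjusted p = 0.461 in edgeR's test). It was -0.06 without minipig 2 and -1.79 without minipig 1. ssc-miR-142-3p was at 237 and 109.9 CPM, from 5 and 7 counts, with a log2 fold change of -0.05 (standard error 0.58, 95% interval -1.25 to 1.14, adjusted p = 0.977). Neither arm was called at Late, where 4.38% of the ssc-miRNAs passed the adjusted threshold and 22.6% the unadjusted one.

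At LR, with the deepest libraries of the later phases, ssc-miR-142-5p was at 338 CPM in minipig 1 and 220.4 CPM in minipig 2 at 20d, from 113 and 159 counts. Minipig 1 was back within the pre-TBI range, at -0.08 against its own baseline on the log2 scale, and minipig 2 was below every pre-TBI library, at -2.08. The log2 fold change was -1.17 (standard error 0.65, 95% interval -2.52 to 0.18, unadjusted p = 0.0852, adjusted p = 0.593 in edgeR's test). It was -0.56 without minipig 2 and -1.72 without minipig 1. Its unadjusted p was 0.0488 when measured from C7 alone (-1.55), 0.235 from C1 alone (-0.84) and 0.0493 in DESeq2 (-1.20), with an adjusted p of 0.339 or more in all 3. ssc-miR-142-3p was at 111 and 169 CPM, from 37 and 122 counts, both within the pre-TBI range, with a log2 fold change of -0.20 (standard error 0.45, 95% interval -1.12 to 0.72, adjusted p = 0.856). Of the ssc-miRNAs tested, 0% passed the adjusted threshold at LR and 5.6% the unadjusted one. Set against Late, LR differed by -0.33 for ssc-miR-142-5p (95% interval -2.01 to 1.35, adjusted p = 0.794) and by -0.15 for ssc-miR-142-3p (95% interval -1.50 to 1.20, adjusted p = 0.899), where 0.73% of the ssc-miRNAs passed the adjusted threshold in edgeR's test.

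The balance between the arms can be read within a library, where the scaling between libraries does not enter. Before TBI the 3p arm took 33.3% of the miR-142 counts at C7 and 20.4% at C1 in minipig 1, 15.0% and 22.9% in minipig 2, and 21.3% and 20.2% in minipig 3. The highest of these, C7 of minipig 1, rests on 12 counts and has an exact 95% interval of 9.92% to 65.1%, which covers counting error only. At Early the share ran from 9.51% to 54.8%, and 9 of the 10 libraries were at 27.1% or less. The tenth was minipig 2 at 7d, with 40 counts of the 3p arm and 33 of the 5p arm, a share of 54.8% (exact 95% interval 42.7% to 66.5%). At 3d the same animal had 14.2% (10.9% to 18.1%).

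After 7d each library of minipig 2 had a higher share of the 3p arm than either of its pre-TBI libraries. The values from 10d to 20d were, in order of time, 25.0%, 37.5%, 33.3% and 43.4%, against 15.0% and 22.9% before TBI. The value at 20d rests on 281 counts (exact 95% interval 37.5% to 49.4%) and the value at 10d on 8 counts (3.19% to 65.1%). These intervals hold no spread between libraries. How many other miRNAs with both arms had such higher shares in this animal was not counted. In minipig 1 the same time points had 23.1%, 41.0%, 31.2% and 24.7%, against 33.3% and 20.4% before TBI.

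**Figure D3:**
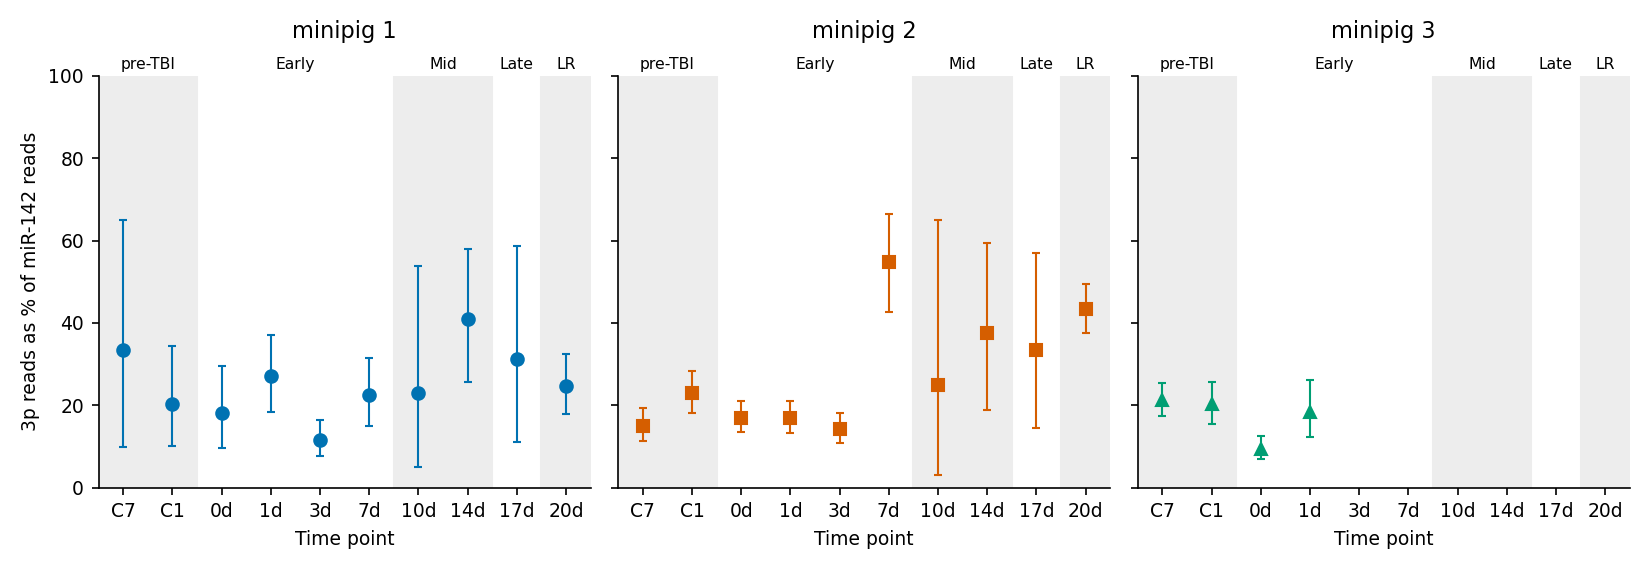
Counts of the 3p arm as a percentage of all miR-142 counts in each library, by time point with 1 panel per minipig, and exact 95% binomial intervals that cover counting error only. In minipig 2 the share is 14.2% at 3d, 54.8% at 7d and 43.4% at 20d, and the wide intervals at 10d to 17d mark libraries with few miR-142 counts.

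On the log2 scale of the 3p to 5p count ratio, the pre-TBI mean was -1.82 ± 0.51 (SD, n = 6). The Early mean was -2.04 ± 0.97 (SD, n = 10). The difference of -0.23 was within the spread between libraries (two-sided exact permutation test with the time labels moved within each minipig, p = 0.648, adjusted over 4 phases p = 0.648). The mean was -1.04 ± 0.52 (SD, n = 4) at Mid, a difference of 0.77 from pre-TBI (exact permutation test, p = 0.0833, adjusted p = 0.296). At Late it was -1.01 ± 0.08 (SD, n = 2) and at LR -0.99 ± 0.86 (SD, n = 2), differences of 0.81 and 0.83. Each had p = 0.222 (exact permutation test, adjusted p = 0.296), and the smallest p that 9 arrangements allow there is 0.111. With C7 of minipig 1 left out, a choice made after seeing the data, the Mid difference was 0.95 and its p = 0.0556 was the smallest that 18 arrangements allow in the exact test. Without minipig 2 the LR difference was 0.07, so at 20d the higher ratio rested on that animal.

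For comparison, the arm ratio was taken for all 78 miRNAs of the table that list both a 3p and a 5p row. At Mid, 5 of them had a higher difference from pre-TBI than miR-142, and the median over the 78 was 0.08. At Late 15 and at LR 10 were higher, with medians of 0.04 and 0.10, and at Early 56 were higher. An unadjusted p under 0.05 was found for 24.4% of the 78 at Early and for 3.85% at Mid, and miR-142 was among neither. The 3 at Mid, named after their values were seen, were ssc-miR-129a, ssc-miR-2320 and ssc-miR-339.

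**Figure D4:**
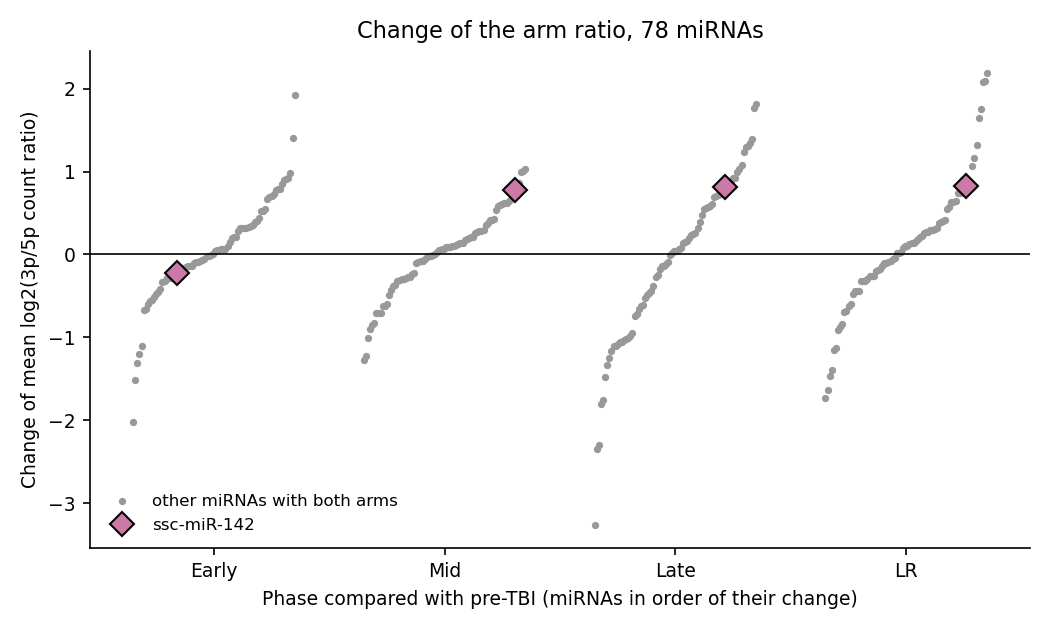
Difference of the mean log2 3p to 5p count ratio from pre-TBI for the 78 miRNAs with both arms in the table, 1 point per miRNA in order of its value within each phase, with miR-142 as a diamond. miR-142 lies at -0.23 at Early, in the lower part of the points. At Mid, Late and LR it lies at 0.77, 0.81 and 0.83, in the upper part of the points but not at their end.

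Over the 24 libraries, which share 3 animals and their depth, the Pearson correlation of log2 CPM between the arms was 0.509. Of the 411 ssc-miRNAs, 18 were more like ssc-miR-142-5p than its own 3p arm was, and 7 were more like ssc-miR-142-3p than its 5p arm was. The 3 most like ssc-miR-142-5p were ssc-miR-451 (r = 0.853), ssc-miR-144 (r = 0.837) and ssc-miR-16 (r = 0.785). The first 2 are made in erythroid cells and are abundant in red cells, and miR-16 is common in blood cells of many kinds. Those most like ssc-miR-142-3p were ssc-miR-140-5p (r = 0.745), ssc-miR-493-5p (r = 0.671) and ssc-miR-136 (r = 0.652), all with at most 98 counts in a library. These correlations are descriptions and were not tested.

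**Figure D5:**
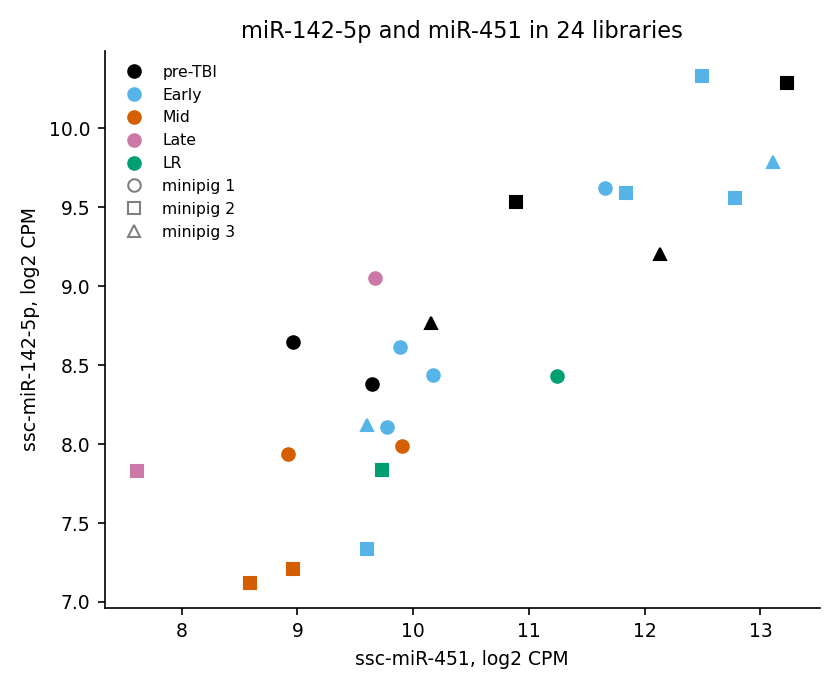
Log2 CPM of ssc-miR-142-5p against that of ssc-miR-451 in the 24 libraries, coloured by phase and with a marker for each minipig (Pearson r = 0.853). The 4 Mid libraries lie towards the lower left, all under 8 on the vertical axis. The minipig 2 libraries from before 7d lie towards the upper right, as do 3d of minipig 1 and C7 and 0d of minipig 3.

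Markers of red cells were therefore set beside the 5p arm. The log2 ratio of ssc-miR-451 to ssc-miR-23a counts, a common index of red cell RNA in plasma, had a median of 0.83 before TBI (-1.16 to 3.43), 1.09 at Early (-0.32 to 3.76), -0.88 at Mid (-1.31 to 0.08), -0.86 at Late (-1.42 to -0.30) and 0.88 at LR (0.04 to 1.72). The median was lower at Mid and Late, as ssc-miR-142-5p was at Mid. In minipig 2 the ratio was 3.43 and 1.14 (C7, C1) before TBI, -0.46 and -1.31 at Mid and -1.42 at Late. In minipig 1 it was -1.16 and 0.02 before TBI, -1.30 and 0.08 at Mid and -0.30 at Late. Only minipig 2 thus had all its Mid and Late values below its pre-TBI values. Minipig 3, at 2.80 and 0.52 before TBI, had no usable Mid or Late library. Within a library, the log2 ratio of ssc-miR-142-5p to ssc-miR-451 counts had a median of -1.38 before TBI (-2.95 to -0.30) and -1.61 at Mid (-1.93 to -0.97), so the Mid values lay inside the pre-TBI range. Its median was -2.11 at Early and -2.38 at LR. At Late the ratio was -0.61 and 0.21, the latter above every pre-TBI library. The part of red cell RNA in the values of ssc-miR-142-5p was not tested.

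Other miRNAs of blood cells were grouped by the cell type they are known for. None of the 15 listed ssc-miRNAs had an adjusted p under 0.05 in any comparison with pre-TBI, and each had at least 1 count in all 24 libraries. The erythroid list (ssc-miR-144, ssc-miR-451 and ssc-miR-486) had median log2 fold changes of 0.01, -1.50, -1.65 and -0.92 from Early to LR, with all 3 rows below 0 from Mid onwards, beside medians over all ssc-miRNAs of 0.02, 0.05, 0.08 and -0.01. Its most abundant row, ssc-miR-486, was at -0.80 at Mid (standard error 0.61, adjusted p = 0.909 in edgeR's test). In the same test ssc-miR-451 was at -2.42 at Mid (unadjusted p = 0.0121) and at -2.74 at Late (unadjusted p = 0.0410). Of all ssc-miRNAs, 5.35% had an unadjusted p under 0.05 at Mid and 22.6% at Late. The summed level of the list, as log2 CPM without TMM factors, was 13.31 to 16.46 before TBI and 13.15 to 14.84 at Mid. The lymphocyte list held ssc-miR-150, of mature B and T cells, and ssc-miR-342. Its median was 0.35, -0.20, -0.04 and -0.16 in the 4 phases, and ssc-miR-342, the more abundant, was at -0.56 at Mid (standard error 0.34, adjusted p = 0.844). ssc-miR-150 was above 0 in all 4 phases, at 0.15, 0.16, 0.58 and 0.29, while ssc-miR-342 was at 0.56 at Early and at -0.66 and -0.60 at Late and LR. Neither had an unadjusted p under 0.05 in any phase.

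The list of miRNAs induced in activated leukocytes (5 rows of miR-146 and miR-155) had medians of -1.23, 0.36, 1.58 and -1.30, and at Late 2 of its rows, ssc-miR-155-3p (2.34) and ssc-miR-146a-3p (1.83), were higher at an unadjusted p under 0.05, as were 64 of all 411 ssc-miRNAs, with 22.6% called in either direction. At Early 1 row, ssc-miR-146a-3p (-1.47), was lower at an unadjusted p under 0.05, beside 18.7% of all called. Its most abundant row, ssc-miR-146a-5p, followed with -1.23, 0.36, 1.43 and -1.30, all with standard errors of 0.88 or more and an adjusted p of 0.400 or more. The platelet list (5 rows of miR-126, miR-191 and miR-425) had medians of 0.24, 0.25, -1.05 and 0.14. Its summed level, again as log2 CPM without TMM factors, was 13.43 to 14.88 before TBI and 12.76 to 14.45 at Mid. Its most abundant row, ssc-miR-191, was at 0.76 and -1.11 at Early and Mid and at -2.11 and -1.28 at Late and LR. Its standard error was 0.55 at Mid, and its lowest adjusted p in edgeR's test was 0.118, at Late. The other platelet rows did not all go the same way. At an unadjusted p under 0.05, ssc-miR-126-5p was higher at Early (0.83) and LR (1.75), ssc-miR-425-3p was higher at Mid (0.61) and Late (0.89), ssc-miR-425-5p was lower at Early (-0.93) and ssc-miR-191 was lower at Late. At Mid, where ssc-miR-142-5p was at -1.73, 3 of 3 erythroid, 2 of 5 platelet, 1 of 2 lymphocyte and 1 of 5 leukocyte activation rows were below 0. Only ssc-miR-451 of these list rows was lower at an unadjusted p under 0.05. The median over all ssc-miRNAs at Mid was 0.05. Their share below 0 was not counted, so whether these signs differ by cell type cannot be read from them. The part of these cell types in the values of miR-142 was not tested.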

How the data were processed

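Plasma small RNA of 3 minipigs was measured. The authors sequenced on a NextSeq, used Cutadapt to trim adapters and Bowtie to align, first to the ssc5 build of the pig genome and next to miRBase, quantified ssc-miRNAs with miRDeep2 and deposited raw counts for 411 ssc-miRNAs in 30 libraries, with no normalization. The authors' methods describe removing ssc-miRNAs with low counts before testing. Whether the deposited 411 are those left by that filter is not given in the sources used here, and each had 5 or more counts in at least 9 of the 30 libraries. Counts are reads without molecular identifiers. The exact binomial intervals of the arm share cover counting error only, while edgeR's intervals include the spread between libraries. Adapter ligation can favour one arm of a hairpin over the other.

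Libraries under 1000 counts were left out, which kept 24 with totals from 24341 to 550316. edgeR 4.0.16 (R 4.3.3) fitted the 5 phases to all ssc-miRNAs with TMM scaling, a CPM above 0.5 in at least 3 libraries (all 411 passed) and no animal term (the libraries of an animal are repeated samples, treated as independent here), and tested with the quasi-likelihood F test and Benjamini-Hochberg adjustment. The standard error is the log2 fold change over the square root of F. Log2 CPM used a prior count of 2, and arm ratios added 0.5 to each count and used exact permutation tests (Python 3.11.15, numpy 2.4.6, scipy 1.17.1). The tests were checked on simulated data with independent libraries and no animal effect, the permutation test at Early only. These checks therefore do not cover repeated sampling of an animal. Alternatives were another scaling, filter, baseline, depth or set of libraries, DESeq2 1.42.0, and the minipig as a block, which follows from repeated sampling of the same animal (mean correlation of deviations from phase means 0.169 within and -0.102 between minipigs). No libraries of a phase were duplicates (smallest chi-square per degree of freedom 21.8 over 68 pairs). The members, lists and alternatives were chosen with earlier results of these data known. Named ssc-miRNAs are the members, the most abundant row of each list and the 3 most correlated with each member, and other list rows were named after their values were seen. A ratio of miR-142 to miR-223 had been planned and was not computed.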

Additional observations from a re-analysis of the deposited data

Results flagged for a closer look

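Of 9 groups of 4 to 10 libraries examined, over both arms and their ratio, 1 held a library that stood apart from the rest of its phase. The log2 ratio of 3p to 5p counts of miR-142 was 0.27 in minipig 2 at 7d, while the other 9 Early libraries lay between -3.23 and -1.41, and its gap to the nearest was 0.48 of the range of the 10. Chance flags about 1 in 20 such groups. The library held 172339 counts in all, of which 40 were of the 3p arm and 33 of the 5p arm.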

How the results depend on the processing

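Neither arm reached an adjusted p of 0.05 in any comparison under any alternative. The lowest was 0.264 in edgeR's test, for ssc-miR-142-3p at Early with the minipig as a replicate block. The 32 alternative values of the arm ratio kept their direction. Their p-values say nothing about stability at Late and LR, where no arrangement of labels within minipigs could give less than 0.111, nor at Mid with C7 only, C1 only, without C7 of minipig 1 or without minipig 1 or 2. Of 140 alternative fold changes of the arms, 131 kept both and 9 changed sign, none with an adjusted p below 0.582.

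With C1 alone as baseline, the log2 fold change became 0.24 for ssc-miR-142-5p at Early, and 0.17 at Late and 0.019 at LR for ssc-miR-142-3p. With library size only, LR against Late became 0.22 for ssc-miR-142-3p. Leaving out one minipig in turn moved ssc-miR-142-5p between -0.21 and 0.0853 at Early and between -0.50 and 0.0647 for LR against Late. It moved ssc-miR-142-3p between -1.44 and 0.0523 at Mid, -0.71 and 0.58 at Late, and -0.97 and 0.68 for LR against Late. Leaving out minipig 1 or 2 leaves 1 library each at Late and LR, assumed to vary like the other phases. The causes were not tested.

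The minipig as a replicate block moved ssc-miR-142-5p at Mid to -1.71 (adjusted p = 0.665) and changed no adjusted call of either arm. The block gave 49 unadjusted calls over all ssc-miRNAs at LR and 23 adjusted calls for LR against Late.

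Counts of called ssc-miRNAs, which set the background, moved more. At Early, adjusted calls (0) became 12 with RLE size factors, 13 with library size only, 33 with DESeq2, 38 with only both groups fitted, 27 without C7 of minipig 1 and 0 to 8 leaving out one minipig, and unadjusted calls (77) became 47 with C1 only and 35 to 78 leaving out one minipig. At Mid, unadjusted calls (22) became 11 with library size only, 13 after thinning to the smallest library and 38 without C7 of minipig 1. At Late, adjusted calls (18) became 10, 9 and 36 under these, 0 with only both groups fitted or C7 only, and 9 to 77 leaving out one minipig. Unadjusted calls there (93) became 39 with only both groups fitted, 38 with C7 only and 60 to 132 leaving out one minipig. At LR, unadjusted calls (23) became 58 with DESeq2, 13 with C1 only and 19 to 65 leaving out one minipig, and adjusted calls (0) became 0 to 6. For LR against Late, adjusted calls (3) became 64 with DESeq2, 1 after thinning, 0 with library size only, only both groups fitted or C7 only, and 0 to 66 leaving out one minipig. Leaving out C7 of minipig 1 was chosen after seeing the data. At Mid and Late the depth leaves 2 to 23 counts behind each value of an arm.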
